A study of Homo sapiens with 42 samples.

Results

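The clustered H1, H3 and H4 histone genes were taken as every gene in the table whose symbol begins with HIST1H, HIST2H, HIST3H or HIST4H followed by 1, 3 or 4. There were 35 of them among 26228 genes: 6 genes for the linker histone H1, 14 for the core histone H3 and 15 for the core histone H4. Of the 35, 19 reached 1 FPKM (fragments counted per kilobase of transcript and scaled to the library's fragments, a level per length) in at least 1 of 42 libraries (3 of H1, 7 of H3 and 9 of H4). Only HIST1H1C and HIST1H3G reached it in all 42. Another 8 were listed at 0 in every library: HIST1H1B, HIST1H3I, HIST1H4F, HIST1H4G, HIST1H4J, HIST1H4L, HIST2H3A and HIST3H3.

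The libraries came from HAP1, a near-haploid line whose labelled source is chronic myelogenous leukaemia, and were made from poly(A)-selected RNA. One line carried CDK7 C312S, in which serine replaces the cysteine of CDK7 that covalent inhibitors bind, and the other is labelled HAP1 WT. CDK7 activates other cyclin-dependent kinases and, within TFIIH, phosphorylates RNA polymerase II, and the series title concerns a selective covalent inhibitor of it. Each line was treated for 24 h with YKL at 500 nM, YKL at 2 µM, THZ531 with YKL at 500 nM, THZ531 with YKL at 2 µM, THZ531, THZ1 or DMSO, in 3 libraries a group. YKL is a code in the treatment labels and is taken here to be the inhibitor of the title. THZ531 is a covalent inhibitor of CDK12 and CDK13, and THZ1 is a covalent inhibitor of CDK7 that also binds CDK12 and CDK13. Doses of THZ531 and THZ1 are not in the labels, so values with YKL, THZ531 and THZ1 are given side by side without a test between these compounds. For the combinations the labels give only the YKL dose, and the column names give both compounds. The labels do not say whether each line is 1 clone or whether the 3 libraries of a group are separate cultures. The p-values therefore measure only how libraries of a group differ, and that spread may be technical.

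Most clustered histone genes are replication-dependent: they are transcribed during S phase, when new DNA has to be packed into nucleosomes. H3 and H4 enter the nucleosome core together as a tetramer, and H1 binds the linker DNA where it enters and leaves the core. Their messenger RNAs normally end in a conserved stem-loop, bound by SLBP, in place of a poly(A) tail, and NPAT is the coactivator that drives their transcription at histone locus bodies. Poly(A)-selected libraries therefore hold only the share of these transcripts that carries a poly(A) tail, and the levels below describe that share and not the whole pool of histone messenger RNA. Bulk RNA also cannot tell fewer expressing cells from less RNA per cell.

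The stem-loop itself is shown first because it marks where the usual transcript ends. Searched as GGNNCTTTTNAGNGCC (16 bases, sense strand) in GENCODE release 29 transcripts, it lay inside an annotated transcript of 13 of the 35 genes, and for 10 of these the annotation ran more than 100 bases past it. Only annotated transcripts were searched, so a stem-loop beyond the annotated end of a gene would be missed. The other genes therefore cannot be said to lack one. The stem-loop took 4 forms: 3 genes carried the form of HIST1H3H, 2 that of HIST1H3G, 5 that of HIST1H4H and 3 that of HIST1H4I. Capitals mark the 4 bases of the loop.
HIST1H3G stem-loop: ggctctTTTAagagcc
HIST1H3H stem-loop: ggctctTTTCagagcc
HIST1H4H stem-loop: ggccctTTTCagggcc
HIST1H4I stem-loop: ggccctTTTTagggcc
The 4 forms differ between H3 and H4 in the arms of the stem and within each family at the last base of the loop. The annotated transcripts ran on for 1518 bases after the stem-loop in HIST1H3G, 769 in HIST1H3H, up to 1655 in HIST1H4H and 212 in HIST1H4I.

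The promoters are shown for the member of each family with the highest level. RefSeq (GRCh38.p14) promoters of 250 bases before the start were given for 31 of the 35 genes, and 3 motifs were searched on both strands by their exact letters. AAACACA, the H1 box, stood in 6 of 6 H1 promoters, 0 of 12 H3 promoters and 0 of 13 H4 promoters, against 4.82% of 35116 promoters of all genes. CCAAT stood in 6 of 6 H1, 12 of 12 H3 and 3 of 13 H4 promoters, against 32.0% of all. TATAAA stood in 3 of 6 H1, 9 of 12 H3 and 7 of 13 H4 promoters, against 10.7% of all. Where a member had more than 1 promoter only the first listed was counted, whereas the shares of all use every promoter. HIST1H3D was thus counted without TATAAA, although its promoter 2 holds it on the opposite strand. In HIST4H4 the match lay 250 to 245 bases before the start. Capitals below mark AAACACA and CCAAT on either strand, and each window is printed 5′ to 3′ on the gene's own strand, which is the minus strand of chromosome 6 in all 3.
HIST1H1C promoter, chr6:26056471-26056720: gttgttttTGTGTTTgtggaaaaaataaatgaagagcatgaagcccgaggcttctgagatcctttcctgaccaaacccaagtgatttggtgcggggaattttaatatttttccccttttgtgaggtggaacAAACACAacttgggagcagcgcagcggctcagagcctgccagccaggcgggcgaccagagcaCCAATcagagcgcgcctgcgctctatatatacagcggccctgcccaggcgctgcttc
HIST1H3G promoter, chr6:26271414-26271663: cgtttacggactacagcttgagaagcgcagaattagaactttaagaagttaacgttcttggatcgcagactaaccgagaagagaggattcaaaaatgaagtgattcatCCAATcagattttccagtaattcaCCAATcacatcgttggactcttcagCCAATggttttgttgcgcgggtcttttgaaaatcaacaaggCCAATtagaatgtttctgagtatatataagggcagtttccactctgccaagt
HIST1H4H promoter, chr6:26285535-26285784: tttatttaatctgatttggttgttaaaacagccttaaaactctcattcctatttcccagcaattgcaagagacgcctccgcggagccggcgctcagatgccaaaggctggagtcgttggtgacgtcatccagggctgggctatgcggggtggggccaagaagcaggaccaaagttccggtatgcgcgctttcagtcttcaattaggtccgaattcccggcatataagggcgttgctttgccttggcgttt
The 3 families thus differ in promoter letters that the choice of genes did not use: the H1 box stood only in H1 promoters among those searched, and CCAAT in 3 of 13 H4 promoters, against all of the H1 and H3 promoters searched.

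By position, 28 of the 35 genes lie on chromosome 6, 6 on chromosome 1 and 1, HIST4H4, on chromosome 12. In GRCh38 (GENCODE release 29), HIST1H1C spans chr6:26055787-26056428 as a single exon on the minus strand. HIST1H3G spans chr6:26269405-26271815 (minus strand, 1 exon), HIST1H3H chr6:27810064-27811300 (plus strand, 1 exon), HIST1H4H chr6:26277609-26285638 (minus strand, 1 to 3 exons) and HIST1H4C chr6:26103876-26104310 (plus strand, 1 exon). The deposited levels were made on hg19, so these positions serve only to place the genes. The sources used here do not say how reads shared by near-identical copies were divided, so single members are uncertain. The longest run of bases shared exactly with another member was 28 to 56 bases for the 15 genes that were tested. It was 1656 bases between HIST2H3A and HIST2H3C and 1547 between HIST2H4A and HIST2H4B, all 4 listed at or near 0.

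Levels were low outside H1. Over the 14 groups HIST1H1C averaged 23.5 FPKM, HIST1H3G 5.10, HIST1H4H 3.60, HIST1H4I 2.31, HIST1H4C 2.12, HIST1H4D 1.67, HIST1H3H 1.66 and HIST1H3A 1.60. Of 1470 values (35 genes in 42 libraries), 759, or 51.6%, were listed at 0, which in such a table can also be a failed estimate. In WT DMSO 10 of the 35 genes reached 1 FPKM in at least 1 library and 3 did so in all 3 libraries. Summed over the 35 genes, the level was 68.3 ± 4.44 FPKM with YKL 500 nM, 64.0 ± 2.31 with YKL 2 µM, 71.0 ± 8.12 when THZ531 joined YKL 500 nM, 89.5 ± 1.84 when it joined YKL 2 µM, 26.6 ± 1.59 with THZ531 and 84.5 ± 0.968 with THZ1, against 19.2 ± 2.48 with DMSO, all in WT (SD, n = 3 here and for all group means). In C312S the sums were 22.7 ± 0.291, 30.4 ± 1.78, 29.5 ± 1.97, 41.7 ± 2.31, 19.4 ± 3.26 and 79.9 ± 11.9 FPKM in that order of treatments, against 27.0 ± 3.44 with DMSO. As deposited, every treated WT group lay above WT DMSO, whereas in C312S the sum with THZ1 stood far above the rest. The sums were not scaled to the spike-ins, whose level differed between these groups, so their order under that scaling was not tested. HIST1H1C alone made up 29.8 to 34.6% of the sum in WT DMSO, 44.6 to 55.7% with THZ531 in WT and 61.8 to 65.2% with THZ1 in C312S. With THZ531 in WT the H3 genes summed to 5.40 FPKM and the H4 genes to 7.48, against 4.56 and 7.81 with DMSO.

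Read depth is unknown, since the files hold FPKM and no counts, so no counting interval can be given. Summed FPKM per library ran between 447938 and 913367. The C312S THZ1 and DMSO groups stood apart from the other C312S groups, with mean sums of 852330 and 794374, against 556810 to 591154 in the other 5. The level of 23 ERCC spike-in RNAs relative to the genes also moved with treatment. Relative to the line's own DMSO it differed in WT by 0.68 log2 with YKL 500 nM, 0.15 with YKL 2 µM, 0.40 and 1.11 with THZ531 and YKL 500 nM and 2 µM, -0.08 with THZ531 and 2.44 with THZ1, and in C312S by -1.55 to -0.78 except with THZ1 (0.22). C312S DMSO exceeded WT DMSO by 1.37. Scaling to the spike-ins would move the median of all genes by -0.58, -0.10, -0.34, -0.93, 0.08 and -1.99 log2 in the 6 WT comparisons with DMSO, and by -1.12 between the DMSO groups. Values below are as deposited, relative to the other genes, and the part of these shifts in the results was not tested beyond the spike-in scaling given beside them. Shares of all genes given below are likewise as deposited. Counts under spike-in scaling come without such a share, so they cannot be read as particular to these genes. CDK7 levels do not check the substitution, which changes a codon. As for the labelled origin, 12 of 13 blood cell markers were below 1 FPKM in all 42 libraries (CD33 reached 1.23), as were 4 of 6 epithelial markers (KRT18 ran from 23.0 to 43.1 and KRT8 up to 3.47) and 3 of 7 fibroblast markers (VIM ran from 211 to 509). The fibroblast markers THY1, PDGFRA and COL1A1 reached 17.1, 7.68 and 3.04 FPKM. The defining blood cell genes PTPRC, SPI1, HBG1 and CD3E were at or near 0.

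Of the 35 genes, 15 passed the filter of at least 1 FPKM in at least 3 libraries and were tested with limma among 12816 genes: HIST1H1C, 6 of H3 and 8 of H4. A gene called here has a Benjamini-Hochberg adjusted p under 0.05 over all genes tested in that comparison. Because a gene can pass the filter through the groups in which it is high, counts over these 15 genes are not counts over all 35. Differences are on the log2(FPKM + 1) scale, on which low genes change less than their ratio of levels.

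In WT cells HIST1H1C, a linker histone gene, rose with every treatment. Its level was 31.7, 29.3 and 31.7 FPKM with YKL 500 nM, against 5.66, 6.11 and 6.30 FPKM with DMSO. The means were 30.9 ± 1.43 and 6.02 ± 0.328 FPKM, a 5.13-fold ratio, and the log2 difference was 2.18 ± 0.08 (SE, limma adjusted p = 1.65e-20). Each treated library lay far above each DMSO library. With YKL 2 µM it was 25.4, 26.6 and 30.0 FPKM (27.3 ± 2.37, 4.54-fold over DMSO). With THZ531 and YKL it was 37.7, 38.3 and 32.4 FPKM at 500 nM (36.1 ± 3.27) and 47.7, 46.4 and 48.5 FPKM at 2 µM (47.5 ± 1.11, 7.90-fold). The combination at 2 µM thus gave the highest WT values, with no overlap with any other WT group. THZ531 alone gave 13.8, 12.4 and 12.5 FPKM (12.9 ± 0.826, 2.14-fold, log2 0.98, limma adjusted p = 3.18e-11), and THZ1 gave 41.2, 43.5 and 45.0 FPKM (43.2 ± 1.95, 7.18-fold, log2 2.66, limma adjusted p = 1.34e-22). No treated WT library overlapped with WT DMSO. With spike-in scaling the log2 differences were 1.60, 1.96, 2.08 and 1.75 with YKL and the combinations in the order above, 1.09 with THZ531 and 0.38 with THZ1 (limma adjusted p = 0.0080), all of them still called. The other 5 H1 genes stayed low: HIST1H1E and HIST1H1T reached 1 FPKM in 2 and 1 libraries, and HIST1H1A, HIST1H1B and HIST1H1D in 0.

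**Figure D1:**
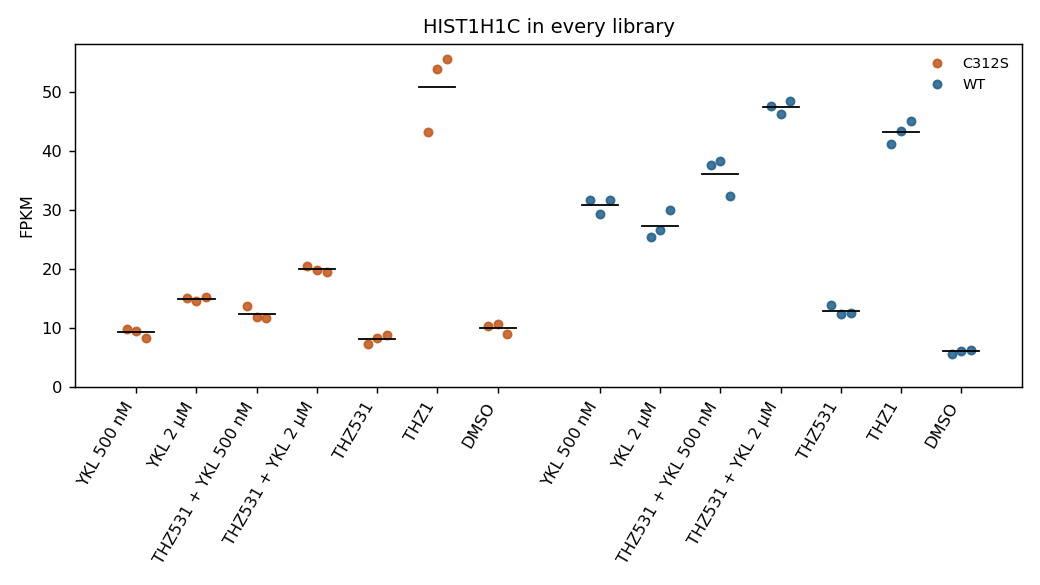
HIST1H1C level in FPKM (vertical axis) in each of the 42 libraries, by line and treatment, with all C312S groups left of all WT groups. Points are libraries and bars are group means of 3. The WT libraries with YKL lie between 25.4 and 31.7 FPKM, against 8.36 to 15.2 FPKM in C312S, while with THZ1 both lines lie above 41.

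Among H3 genes, HIST1H3G showed the widest rise with YKL. Its level was 14.3, 12.0 and 10.3 FPKM with YKL 500 nM in WT, against 1.60, 2.20 and 1.19 FPKM with DMSO. The means were 12.2 ± 2.04 and 1.66 ± 0.506 FPKM (7.32-fold), and the difference of 2.31 ± 0.24 log2 was the largest of the 15 genes for this treatment (limma adjusted p = 6.81e-10). The lowest treated library stood well over the highest DMSO library. YKL 2 µM gave 7.84, 11.1 and 8.40 FPKM (5.49-fold), THZ531 with YKL gave 11.2, 8.25 and 6.75 FPKM at 500 nM (5.25-fold) and 8.50, 7.71 and 9.97 FPKM at 2 µM (5.24-fold). THZ1 gave 6.48, 2.27 and 7.34 FPKM (5.36 ± 2.71, 3.22-fold, log2 1.16, limma adjusted p = 7.48e-05), with 1 library close to the DMSO range. With THZ531 alone it was 3.20, 2.02 and 1.86 FPKM, which overlapped with DMSO (0.33, 95% interval -0.16 to 0.82, limma adjusted p = 0.262). With spike-in scaling the log2 differences with YKL and the combinations were 1.87, 1.99, 1.66 and 1.03, but that with THZ1 turned to -0.52.

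HIST1H3H was 3.63, 4.30 and 3.97 FPKM with YKL 500 nM and 3.92, 3.29 and 3.90 FPKM with YKL 2 µM in WT, against 0.520, 0.496 and 0.778 FPKM with DMSO. The treated libraries formed a separate, higher group at both doses (log2 1.64 ± 0.20 and 1.56 ± 0.20, limma adjusted p = 1.86e-08 and 4.12e-08). It was 3.09, 2.44 and 1.80 FPKM with THZ531 and YKL 500 nM, 2.26, 2.12 and 1.27 FPKM with THZ531 and YKL 2 µM, 0.977, 0.481 and 0.606 FPKM with THZ531, and 1.36, 1.85 and 1.49 FPKM with THZ1. All of these except THZ531 were called higher (1.10, 0.84 and 0.68 log2), and THZ531 overlapped with DMSO (0.07). HIST1H3H thus had its highest WT mean with YKL alone, as did HIST1H3G, whereas HIST1H1C did not. With spike-in scaling its difference with THZ531 and YKL 2 µM was 0.27 and no longer called, and with THZ1 it turned to -0.41.

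HIST1H3A was 2.89, 2.78 and 0.768 FPKM with YKL 500 nM, 1.09, 1.73 and 2.44 FPKM with YKL 2 µM, 3.14, 2.36 and 1.62 FPKM with THZ531 and YKL 500 nM, 2.87, 3.11 and 3.01 FPKM with THZ531 and YKL 2 µM, 0.595, 1.12 and 1.03 FPKM with THZ531, and 2.75, 2.63 and 2.43 FPKM with THZ1, against 1.06, 0.504 and 0.395 FPKM with DMSO. The libraries with THZ1 and with the combination at 2 µM lay close together above DMSO (1.15 and 1.30 log2, limma adjusted p = 0.00236 and 5.86e-04), whereas 1 library with YKL 500 nM fell inside the DMSO range (0.86, limma adjusted p = 0.0208). The call with YKL 500 nM was lost without DMSO replicate 2 or 3 or YKL 500 nM replicate 1 or 2 (0.81, 0.75, 0.67 and 0.69 log2), and under spike-in scaling (0.57), where the difference with THZ1 was -0.16. That with YKL 2 µM (0.73, limma adjusted p = 0.0487) was lost without DMSO replicate 2 or 3 or YKL 2 µM replicate 2 or 3 (0.67, 0.62, 0.72 and 0.55).

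HIST1H3B and HIST1H3D were also called higher with 5 of 6 WT treatments each. HIST1H3B averaged 4.23 ± 0.0506 FPKM with THZ531 and YKL 2 µM, against 0.941 ± 0.140 FPKM with DMSO (log2 1.43), and HIST1H3D averaged 2.43 ± 0.485 FPKM with THZ1, against 0.296 ± 0.135 FPKM with DMSO (log2 1.40). Neither was called with THZ531 alone. With YKL 500 nM both calls (0.52 for HIST1H3B and 0.50 for HIST1H3D) were lost under spike-in scaling (0.17 and 0.32), that of HIST1H3B also without DMSO replicate 3 or YKL 500 nM replicate 1 (0.46 and 0.39) and that of HIST1H3D without DMSO replicate 2 or YKL 500 nM replicate 2 or 3 (0.42, 0.38 and 0.39). The HIST1H3B call with THZ531 and YKL 500 nM (0.48) was lost without DMSO replicate 3 or combination replicate 1 or 2 (0.42, 0.48 and 0.32) and under spike-in scaling (0.29). With spike-in scaling the THZ1 difference of HIST1H3B turned to -0.48 and that of HIST1H3D was 0.22.

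HIST1H3J had the lowest mean over the 14 groups of the named H3 genes (0.443 FPKM). It was 1.27, 0.767 and 0.742 FPKM with YKL 500 nM and 1.57, 0.668 and 1.08 FPKM with YKL 2 µM in WT, against 0.255, 0.812 and 0 FPKM with DMSO. It was called higher with both doses (0.54 and 0.66 log2, limma adjusted p = 0.0393 and 0.0122), although DMSO replicate 2 lay inside the range of both treated groups, and it was called with none of the other 4 WT treatments (-0.14 to 0.27). It passed the filter only through YKL libraries, those named above at 1.27, 1.57 and 1.08 FPKM and C312S YKL 2 µM replicate 1 (1.04 FPKM). The filter therefore favours its calls with YKL. The call with YKL 500 nM was lost without DMSO replicate 1 or 3 or YKL 500 nM replicate 1 (0.51, 0.34 and 0.42) and with spike-in scaling (0.38), and that with YKL 2 µM without DMSO replicate 3 or YKL 2 µM replicate 1 (0.46 and 0.50).

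H4 genes went in more than one direction. HIST1H4H was 6.19, 6.23 and 6.63 FPKM with YKL 500 nM, 9.09, 7.05 and 5.42 FPKM with YKL 2 µM, 6.06, 5.64 and 7.96 FPKM with THZ531 and YKL 500 nM, 7.52, 7.88 and 7.43 FPKM with THZ531 and YKL 2 µM, 0.311, 1.92 and 0.644 FPKM with THZ531, and 6.48, 9.45 and 5.71 FPKM with THZ1, against 1.66, 3.16 and 2.48 FPKM with DMSO. All groups but THZ531 lay wholly above DMSO and were called higher, by 1.12, 1.25, 1.15, 1.35 and 1.26 log2 with an SE of 0.40, and with THZ531 alone 2 of 3 libraries lay below DMSO (-0.87, limma adjusted p = 0.0694). The calls with YKL 500 nM and with its combination were lost without DMSO replicate 1 (0.95 and 0.98), and spike-in scaling gave 0.63 with YKL 500 nM, 0.45 with the combination at 2 µM and -0.62 with THZ1, none of them called.

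HIST1H4C moved the other way with YKL. It was 0, 0.569 and 0.275 FPKM with YKL 500 nM, 0.519, 0.495 and 0.291 FPKM with YKL 2 µM, 2.08, 0.178 and 0.582 FPKM with THZ531 and YKL 500 nM, 0, 0.343 and 0.616 FPKM with THZ531 and YKL 2 µM, 1.14, 1.96 and 2.06 FPKM with THZ531, and 3.95, 5.93 and 9.13 FPKM with THZ1, against 0.757, 1.44 and 1.70 FPKM with DMSO. Both YKL groups and the combination at 2 µM lay wholly below DMSO, and the THZ1 group lay wholly above it. It was called lower with YKL 500 nM (-0.84 ± 0.34, limma adjusted p = 0.0334) and with the combination at 2 µM (-0.81 ± 0.34, limma adjusted p = 0.0345), not with YKL 2 µM (-0.66, limma adjusted p = 0.0923), and higher with THZ1 (1.64 ± 0.34, limma adjusted p = 1.06e-04). The call with YKL 500 nM was lost without DMSO replicate 2 or 3 or YKL 500 nM replicate 1 or 3 (-0.79, -0.72, -0.68 and -0.85). That with the combination was lost without DMSO replicate 2 or 3 or combination replicate 1 or 2 (-0.75, -0.68, -0.62 and -0.83), and the THZ1 difference turned to -0.10 under spike-in scaling.

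HIST1H4I was 3.81, 1.59 and 1.85 FPKM with YKL 500 nM, 2.04, 1.48 and 3.27 FPKM with YKL 2 µM, 3.88, 2.39 and 3.26 FPKM with THZ531 and YKL 500 nM, 4.62, 3.08 and 3.11 FPKM with THZ531 and YKL 2 µM, 2.23, 1.49 and 0.989 FPKM with THZ531, and 2.95, 3.02 and 1.95 FPKM with THZ1, against 0.425, 1.35 and 1.91 FPKM with DMSO. Only the combinations and THZ1 stood clear of DMSO (0.95, 1.09 and 0.76 log2, called), and YKL alone overlapped with it (0.62 and 0.57, limma adjusted p = 0.0804 and 0.104). The THZ1 call was lost without DMSO replicate 1 or THZ1 replicate 1 or 2 (0.47, 0.69 and 0.68) and turned to -0.65 with spike-in scaling, and the combination at 500 nM lost its call without DMSO replicate 1 (0.66). HIST1H4D averaged 2.24, 2.92, 1.56, 2.66, 0.874 and 2.16 FPKM with the WT treatments in that order, against 0.884 ± 0.756 FPKM with DMSO. It was called higher with YKL 500 nM, YKL 2 µM and THZ531 with YKL 2 µM (0.82, 1.11 and 1.02 log2), and each of these calls was lost without DMSO replicate 2 (0.58, 0.87 and 0.78), the first also without DMSO replicate 3 or YKL 500 nM replicate 2 or 3 (0.76, 0.67 and 0.74). Under spike-in scaling the first and the third were lost as well (0.52 and 0.40).

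**Figure D2:**
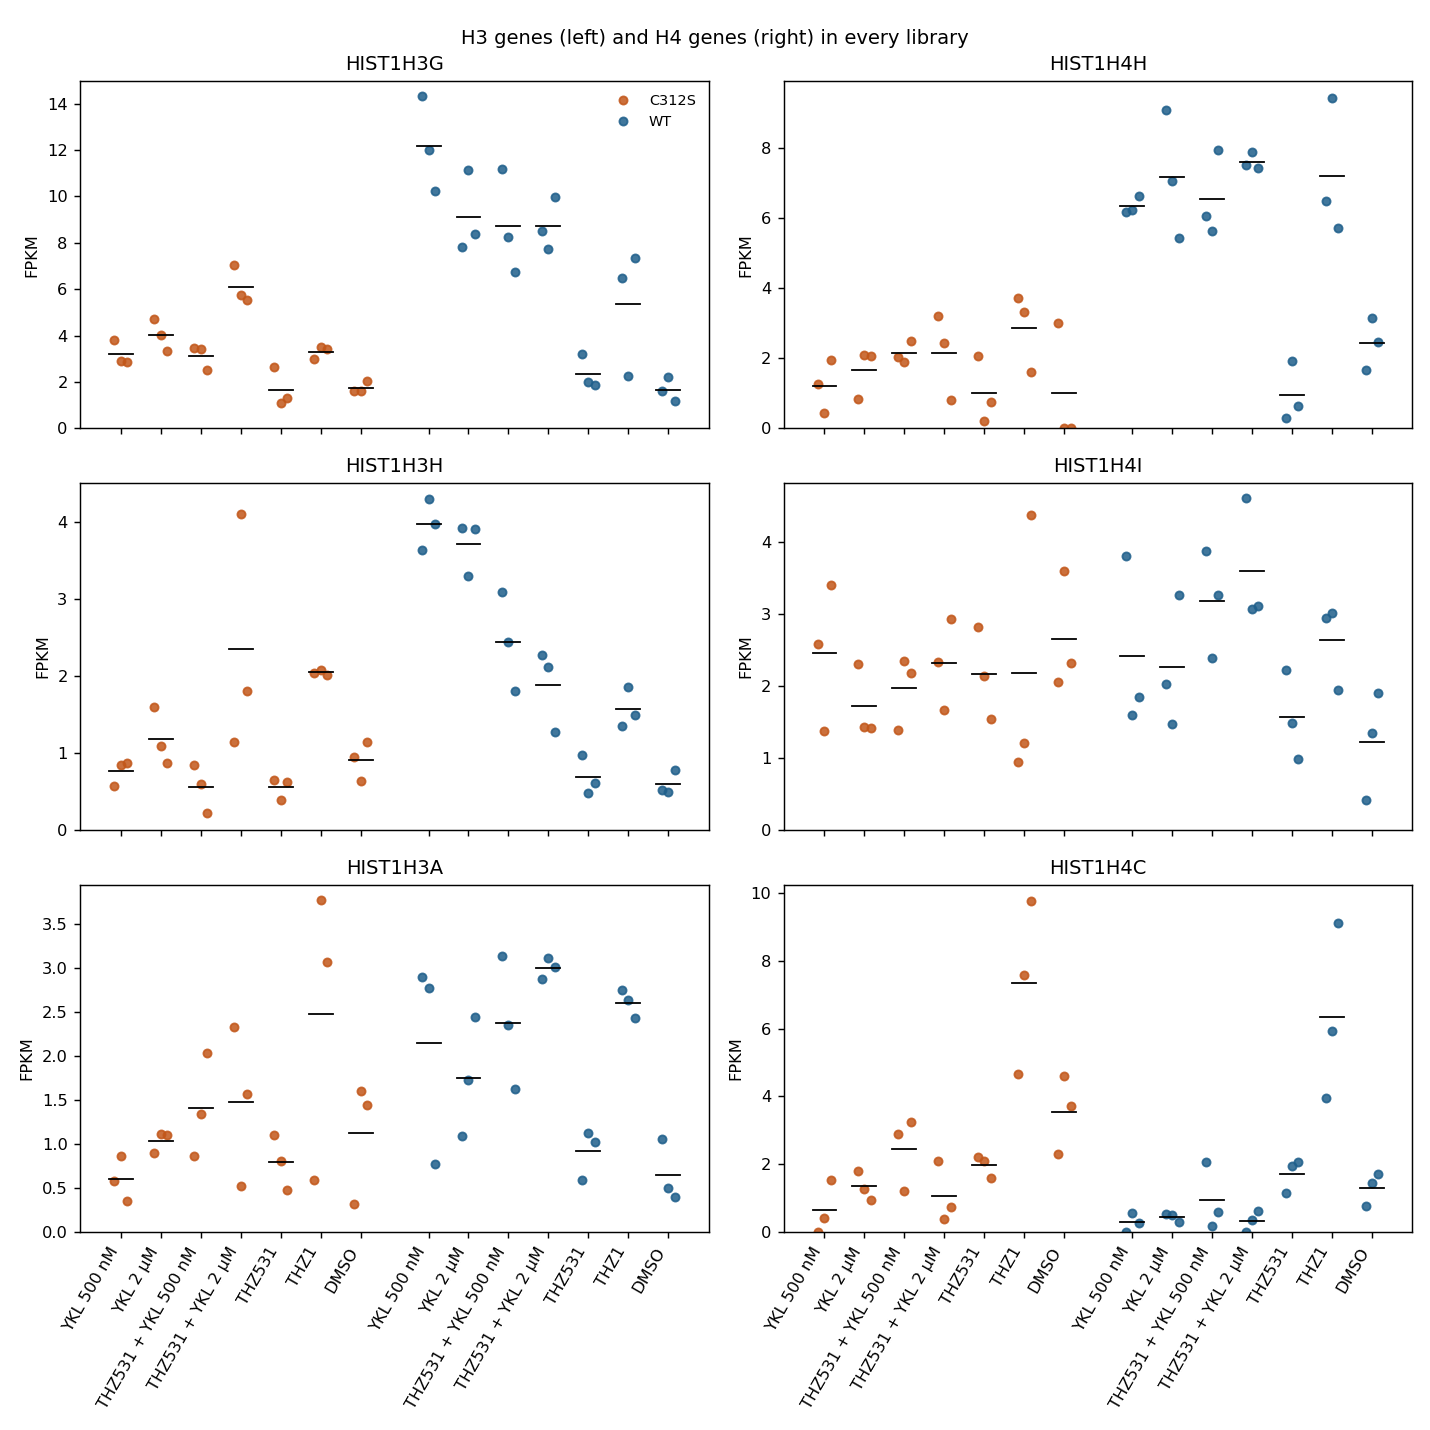
FPKM (vertical axes) of HIST1H3G, HIST1H3H and HIST1H3A in the left panels and HIST1H4H, HIST1H4I and HIST1H4C in the right panels, by treatment and line; points are libraries and bars are group means of 3. In WT HIST1H3G, HIST1H3H and HIST1H4H stand above DMSO with YKL at both doses, and HIST1H3A has 1 library with YKL 500 nM inside the DMSO range, whereas HIST1H4C lies at 0 to 0.569 FPKM with YKL, against 0.757 to 1.70 FPKM with DMSO, and at 3.95 to 9.13 FPKM with THZ1.

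Counted over the 15 tested genes, YKL 500 nM in WT had 10 higher and 2 lower (median log2 0.78), where 31.3% of all genes tested were called higher and 31.7% lower. The 2 lower genes were HIST1H4C and HIST1H4B (-0.68), the second named after its values were seen and lost without DMSO replicate 2 or 3 or YKL 500 nM replicate 1 or 2 (-0.76, -0.47, -0.61 and -0.61). Without DMSO replicate 2 or 3 or YKL 500 nM replicate 1 the count was 7 higher and 0 lower in each case, and with spike-in scaling it was 4 higher and 2 lower. YKL 2 µM had 10 higher and 0 lower by limma (10 and 1 at an unadjusted p under 0.05, median 0.73, all genes 31.8% higher and 33.5% lower), and 10 higher and 2 lower with spike-in scaling. THZ531 with YKL 500 nM had 9 higher and 0 lower (10 and 1 unadjusted, median 0.83, all genes 34.0% higher and 34.2% lower), and THZ531 with YKL 2 µM had 11 higher and 1 lower (median 1.03, all genes 38.9% higher and 38.1% lower), or 6 higher and 2 lower with spike-in scaling. THZ531 alone had 1 higher, HIST1H1C, and 0 lower by limma (1 higher and 1 lower at an unadjusted p under 0.05, median 0.07, all genes 24.0% higher and 22.9% lower), and without THZ531 replicate 2 it had 1 higher and 1 lower. THZ1 had 11 higher and 0 lower (0 lower also at an unadjusted p under 0.05, median 0.91, all genes 34.0% higher and 34.8% lower), but 1 higher and 3 lower with spike-in scaling. As deposited, the share of these genes called higher was above that of all genes with each WT treatment except THZ531. HIST1H3D, HIST1H3H, HIST1H3J, HIST1H4E and HIST4H4, however, reached 1 FPKM in 0 WT DMSO libraries and passed the filter through other groups. The filter thus favours higher calls for them, and its part in this share was not tested. Fibroblast markers moved with the treatments too: of the 4 tested, 3 were called lower with YKL 500 nM in WT (median -0.52) and 4 with YKL 2 µM (median -0.50), 3 and 4 with its combinations at 500 nM and 2 µM, 2 higher and 2 lower with THZ531 and 1 higher and 2 lower with THZ1. With spike-in scaling all 4 were called lower with each of these treatments except THZ531, which had 2 higher and 0 lower. The 7 listed summed to 307 to 319 FPKM with YKL 500 nM, 321 to 331 with YKL 2 µM, 273 to 279 and 229 to 260 with the combinations, 396 to 412 with THZ531 and 517 to 530 with THZ1, against 471 to 532 with DMSO. Their part in the counts was not tested.

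A stem-loop inside an annotated transcript with more than 100 bases after it was present in 6 of the 15 tested genes: HIST1H3G, HIST1H3H, HIST1H4E, HIST1H4H, HIST1H4I and HIST4H4. With THZ1 in WT 6 of these 6 were called higher, against 5 of the 9 others, where 34.0% of all genes tested were. With spike-in scaling 0 of the 6 were called higher and 1 lower, and 5 of them had a negative difference, against 1 higher and 2 lower of the 9. HIST1H4E was 4.25, 1.74 and 0.468 FPKM with THZ1, against 0, 0.518 and 0.609 FPKM with DMSO, so that the groups overlapped, and its call (1.04) was lost without DMSO replicate 1 or THZ1 replicate 1 (0.82 and 0.57). With THZ531 and YKL 2 µM the counts were 6 of 6 higher, against 5 higher and 1 lower of 9 (all genes 38.9% higher), and with spike-in scaling 2 of 6 higher, against 4 higher and 2 lower of 9. With YKL 500 nM they were 4 of 6 higher, against 6 higher and 2 lower of 9 (all genes 31.3% higher), and with spike-in scaling 3 of 6 higher, against 1 higher and 2 lower of 9. HIST1H1C, the gene with the highest levels, is among the 9. Its annotated transcript of 642 bases holds no stem-loop, so the split follows the annotation and cannot say whether its RNA runs past one. HIST1H3H, HIST1H4E and HIST4H4 of the 6, and HIST1H3D and HIST1H3J of the 9, reached 1 FPKM in 0 WT DMSO libraries. The filter favours higher calls for these genes.

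**Figure D3:**
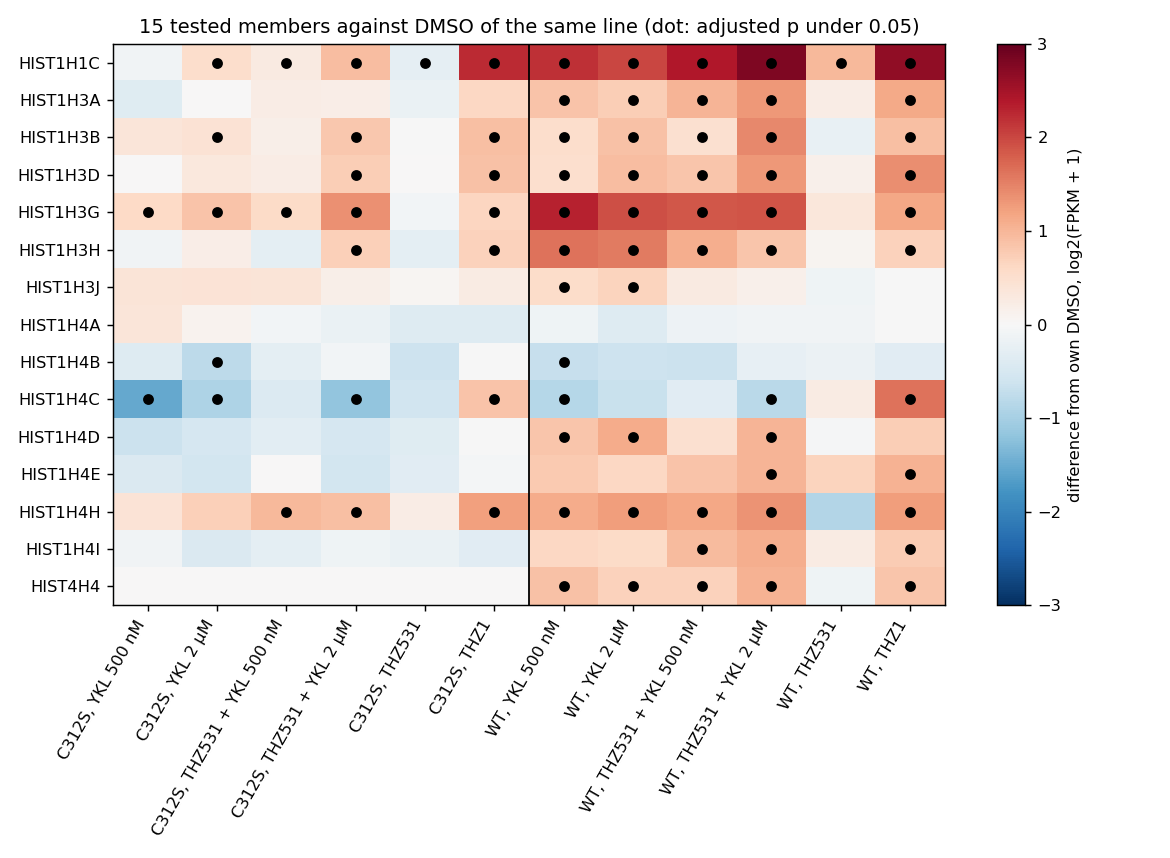
Heat map of log2 differences from the line's own DMSO for the 15 tested genes (down the page) in each treatment and line (across), on the log2(FPKM + 1) scale; dots mark a limma adjusted p under 0.05. HIST1H1C is called in all 6 WT columns and HIST1H3G in 5, and each C312S column holds fewer dots than the WT column of the same treatment, except THZ531 with 1 in each line.

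In C312S cells fewer of the 15 genes were called against the line's own DMSO than in WT with each treatment except THZ531, where both lines had 1 call. Spike-in scaling, which raises the median gene by 0.86 to 1.27 log2 with YKL 500 nM, YKL 2 µM, THZ531 and THZ531 with YKL 500 nM and by 0.61 with THZ531 and YKL 2 µM, changed this picture, as given below. HIST1H1C was 9.81, 9.56 and 8.36 FPKM with YKL 500 nM and 15.1, 14.6 and 15.2 FPKM with YKL 2 µM, against 10.4, 10.7 and 9.06 FPKM with DMSO. At 500 nM the libraries overlapped with DMSO (-0.11, 95% interval -0.27 to 0.06, limma adjusted p = 0.223), and at 2 µM all 3 lay above it (1.49-fold, log2 0.54, limma adjusted p = 5.32e-07). It was 13.7, 11.8 and 11.7 FPKM with THZ531 and YKL 500 nM (1.23-fold), 20.5, 19.8 and 19.5 FPKM with THZ531 and YKL 2 µM (1.98-fold), 7.32, 8.32 and 8.77 FPKM with THZ531 (-0.27 log2, limma adjusted p = 0.00309) and 43.2, 53.9 and 55.7 FPKM with THZ1 (50.9 ± 6.72, 5.07-fold). The fall with THZ531 and the value with YKL 500 nM turned to 1.18 and 0.93 with spike-in scaling, both called higher, and the other 4 differences were 1.69, 1.39, 1.66 and 1.94 with YKL 2 µM, the combinations and THZ1. THZ1 took HIST1H1C to its highest mean of the 14 groups.

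HIST1H3G was 3.83, 2.89 and 2.85 FPKM with YKL 500 nM, 4.70, 4.03 and 3.34 FPKM with YKL 2 µM, 3.48, 3.43 and 2.51 FPKM with THZ531 and YKL 500 nM, 7.05, 5.76 and 5.53 FPKM with THZ531 and YKL 2 µM, 2.65, 1.08 and 1.29 FPKM with THZ531, and 2.99, 3.50 and 3.43 FPKM with THZ1, against 1.61, 1.62 and 2.04 FPKM with DMSO in C312S. All groups but THZ531 lay wholly above DMSO and were called higher, by 0.60, 0.86, 0.58, 1.37 and 0.65 log2. The THZ1 call was lost without DMSO replicate 1 or 2 or THZ1 replicate 2 (0.61 each) and with spike-in scaling (0.39). The call with YKL 500 nM was lost without DMSO replicate 1 or 2 or YKL 500 nM replicate 1 (0.56, 0.56 and 0.49), and that with THZ531 and YKL 500 nM without DMSO replicate 1 or 2 or combination replicate 1 or 2 (0.55, 0.55, 0.52 and 0.53). HIST1H3H was called with THZ531 and YKL 2 µM (1.15, 4.09 and 1.80 FPKM, 0.73 log2) and with THZ1 (2.04, 2.08 and 2.01 FPKM, 0.69 log2), against 0.947, 0.632 and 1.14 FPKM with DMSO, and its YKL libraries ran from 0.567 to 1.59 FPKM and overlapped with DMSO. The first of these calls rests on combination replicate 2 (0.37 without it), and the second was lost with spike-in scaling (0.41).

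HIST1H4C was 0, 0.410 and 1.52 FPKM with YKL 500 nM and 4.67, 7.57 and 9.76 FPKM with THZ1, against 2.30, 4.60 and 3.72 FPKM with DMSO in C312S. It was called lower with YKL 500 nM (-1.54 ± 0.34, limma adjusted p = 1.72e-04), YKL 2 µM (-0.94) and THZ531 with YKL 2 µM (-1.18), and higher with THZ1 (0.86). The call with YKL 2 µM was lost without DMSO replicate 2 or YKL 2 µM replicate 3 (-0.77 and -0.81), and with spike-in scaling that with YKL 500 nM stayed (-0.87) while those with YKL 2 µM and the combination were lost (-0.09 and -0.60). The fall with YKL 500 nM and the rise with THZ1 were thus called in both lines, with the THZ1 call in C312S lost without DMSO replicate 1 or THZ1 replicate 2 or 3 (0.65, 0.82 and 0.65) and with spike-in scaling (0.58). HIST1H4H was 3.72, 3.32 and 1.60 FPKM with THZ1, against 3.02, 0 and 0 FPKM with DMSO, and its call (1.24) was lost without DMSO replicate 2 or 3 (0.91 each) and with spike-in scaling (0.79). HIST1H4I lay between 0.952 and 4.38 FPKM over the treated C312S libraries, against 2.06 to 3.61 FPKM with DMSO, and was called with 0 treatments by limma (0 also at an unadjusted p under 0.05).

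Over the 15 genes, C312S had 1 higher and 1 lower with YKL 500 nM (median -0.10, all genes 36.9% higher and 39.6% lower), against 6 higher and 1 lower with spike-in scaling and 3 higher and 1 lower with total-FPKM scaling. YKL 2 µM had 3 higher and 2 lower (median 0.09, all genes 36.6% higher and 39.2% lower), against 7 higher and 0 lower with spike-in scaling and 5 higher and 1 lower with total-FPKM scaling, and without YKL 2 µM replicate 3 it had 2 higher and 1 lower. THZ531 with YKL 500 nM had 3 higher and 0 lower (0 lower also at an unadjusted p under 0.05, median 0.00, all genes 35.0% higher and 38.4% lower), against 7 higher and 0 lower with spike-in scaling, and 1 higher without DMSO replicate 2. THZ531 with YKL 2 µM had 6 higher and 1 lower (median 0.17, all genes 32.8% higher and 35.9% lower), or 6 higher and 0 lower with spike-in scaling. THZ531 had 0 higher and 1 lower (median -0.20, all genes 34.6% higher and 39.5% lower), but 4 higher and 0 lower with spike-in scaling, and 2 calls without DMSO replicate 1 or 3 or THZ531 replicate 1. THZ1 had 7 higher and 0 lower (median 0.63, all genes 33.9% higher and 29.7% lower), against 3 higher and 0 lower with spike-in scaling. These counts rest on the C312S DMSO libraries, which stand apart from the treated groups other than THZ1 in summed FPKM and spike-in level. The shares of all genes in this paragraph are those as deposited, not those under spike-in or total-FPKM scaling.

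The 2 lines also differed without a compound. HIST1H1C averaged 10.0 ± 0.873 FPKM in C312S DMSO and 6.02 ± 0.328 FPKM in WT DMSO, a difference of 0.65 ± 0.08 log2 (limma adjusted p = 1.16e-08) that turned to -0.63 with spike-in scaling. HIST1H4C (0.97) and HIST1H4I (0.76) were also called higher in C312S DMSO, and HIST1H3B (-0.60) and HIST1H4H (-1.09) lower, where 41.3% of all genes were called higher and 37.9% lower. The H4 and HIST1H3B calls are less sure. Those of HIST1H4C and HIST1H4I were lost without WT DMSO replicate 1 or C312S DMSO replicate 2 (0.79 and 0.80, 0.46 and 0.58), that of HIST1H3B without C312S DMSO replicate 1 (-0.42), and that of HIST1H4H without WT DMSO replicate 2 or C312S DMSO replicate 2 or 3 (-0.94, -0.75 and -0.75). With spike-in scaling HIST1H4I was at -0.14 and HIST1H4C at 0.01, and the 15 genes had 0 higher and 6 lower, against 3 higher and 2 lower as deposited and 1 higher and 2 lower with total-FPKM scaling. Without C312S DMSO replicate 2, only 2 of the 15 genes were called in either direction. Fibroblast markers moved with these differences. The 4 tested of the 7 listed were all called lower in C312S DMSO than in WT DMSO (median -1.52, or -2.67 with spike-in scaling), and the 7 summed to 240 to 254 FPKM in C312S DMSO and 471 to 532 FPKM in WT DMSO, most of it VIM. COL1A2 and COL3A1 were at or near 0, whereas THY1, PDGFRA and COL1A1 reached up to 17.1, 7.68 and 3.04 FPKM over all libraries. Both tested epithelial markers were also called lower in C312S DMSO (median -0.40), and the 6 listed summed to 23.5 to 28.9 FPKM in C312S DMSO and 30.5 to 34.3 FPKM in WT DMSO, with EPCAM and CDH1 at or near 0. The part of these markers in the differences between the DMSO groups was not tested.

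The difference of the treatment effects between the lines was tested itself. The effect of YKL 500 nM on HIST1H1C was 2.29 ± 0.11 log2 smaller in C312S than in WT (-2.29, limma adjusted p = 4.60e-17), that on HIST1H3G was -1.71 ± 0.34 (limma adjusted p = 3.71e-05) and that on HIST1H3H was -1.75 ± 0.28 (limma adjusted p = 1.85e-06). In this comparison 6 of the 15 genes had a lower effect in C312S and 0 a higher one (0 also at an unadjusted p under 0.05), where 34.7% of all genes tested had a higher and 39.0% a lower effect. The counts of lower and higher effects were 6 and 0 with YKL 2 µM (all genes 37.4% and 34.4%), 5 and 0 with THZ531 and YKL 500 nM (39.3% and 35.1%), 8 and 0 with THZ531 and YKL 2 µM (41.1% and 37.5%), 1 and 0 with THZ531 (35.3% and 32.7%), and 3 and 0 with THZ1 (19.8% and 22.4%), each 0 holding at an unadjusted p under 0.05. HIST1H1C was among the called genes in each of the 6 comparisons, with its smallest difference for THZ1 (-0.43 ± 0.11, limma adjusted p = 0.00311). HIST1H3H with THZ1 gave 0.00 with a 95% interval of -0.57 to 0.58. Some counts rest on single libraries. That with THZ531 was 1 lower and 1 higher without WT THZ531 replicate 2, C312S DMSO replicate 1 or C312S THZ531 replicate 2. That with THZ531 and YKL 2 µM was 5 without WT combination replicate 2 or C312S DMSO replicate 3, and that with THZ1 was 1 without C312S DMSO replicate 2 or 3 or C312S THZ1 replicate 1 or 2. All 6 comparisons share the DMSO libraries. With spike-in scaling the HIST1H1C differences were -0.68, -0.27, -0.69 and -0.09 with YKL 500 nM, YKL 2 µM and the combinations at 500 nM and 2 µM, but 0.09 with THZ531 and 1.56 with THZ1, and the counts of lower and higher effects became 3 and 2 with YKL 500 nM, 2 and 0 with YKL 2 µM, 2 and 2 with THZ531 and YKL 500 nM, 0 and 3 with THZ531 and YKL 2 µM, 0 and 2 with THZ531 and 0 and 6 with THZ1. With total-FPKM scaling THZ531 had 1 lower and 1 higher effect. Of the 4 tested fibroblast markers the effect was called higher in C312S for 4 with each YKL dose and each combination, for 3 with THZ531 and for 0 with THZ1, which had 2 lower, whereas with spike-in scaling it was higher for all 4 in each of the 6 comparisons. Their part in the differences between lines was not tested.

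Adding YKL to THZ531 gives a comparison without any DMSO library and without the C312S groups that stand apart. In WT HIST1H1C averaged 36.1 ± 3.27 FPKM with THZ531 and YKL 500 nM and 12.9 ± 0.826 FPKM with THZ531 (1.42 ± 0.08 log2, limma adjusted p = 1.23e-15), and 47.5 ± 1.11 FPKM with YKL 2 µM added (1.81 ± 0.08, limma adjusted p = 1.04e-18). In C312S it averaged 12.4 ± 1.10 FPKM with YKL 500 nM added and 8.14 ± 0.739 FPKM with THZ531 (0.55, limma adjusted p = 1.65e-04), and 19.9 ± 0.478 FPKM with YKL 2 µM added (1.20, limma adjusted p = 1.52e-12). The libraries with and without YKL did not overlap in either line. The increments were smaller in C312S, by -0.86 ± 0.11 at 500 nM and -0.61 ± 0.11 at 2 µM (limma adjusted p = 3.34e-07 and 4.58e-05). Scaled to the spike-ins, the difference between lines at 2 µM was -0.18 and no longer called, as was the C312S increment at 500 nM (0.22).

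HIST1H3G rose by 1.53 ± 0.24 log2 in WT when YKL 500 nM was added (limma adjusted p = 1.81e-06), and in C312S the change was 0.67, which was not called (95% interval 0.18 to 1.15, limma adjusted p = 0.299). At 2 µM the increments were close, 1.45 in C312S and 1.55 in WT, and the difference between lines was -0.10 (95% interval -0.78 to 0.59). For HIST1H3H they were 1.01 in C312S and 0.77 in WT (difference 0.24, 95% interval -0.33 to 0.82). HIST1H4H, low with THZ531 alone, rose by 2.02 and 2.22 log2 in WT with YKL 500 nM and 2 µM added, and HIST1H4C fell by 1.05 in WT with 2 µM (limma adjusted p = 0.00717). Counted over the 15 genes, adding YKL 500 nM had 1 higher in C312S (all genes 0.390% higher and 0.187% lower) and 9 higher and 0 lower in WT (all genes 31.5% and 29.7%), or 7 and 2 in WT with spike-in scaling. Adding YKL 2 µM had 5 higher and 0 lower in C312S (18.5% and 16.3%; 5 and 1 with spike-in scaling) and 10 higher and 1 lower in WT (38.3% and 35.3%). The difference between lines was lower in C312S for 4 genes at 500 nM and 5 at 2 µM and higher for 0 (0 also at an unadjusted p under 0.05, all genes 21.0% and 27.2% lower, 20.5% and 25.9% higher). With spike-in scaling these counts were 2 and 1, and with GC and length trends removed they were 2 and 3, all lower in C312S. The count of 4 was 2 without WT combination replicate 1 or 2, C312S THZ531 replicate 1 or C312S combination replicate 3. The count of 5 was 2 without WT THZ531 replicate 1 and 3 without C312S THZ531 replicate 1 or C312S combination replicate 3.

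**Figure D4:**
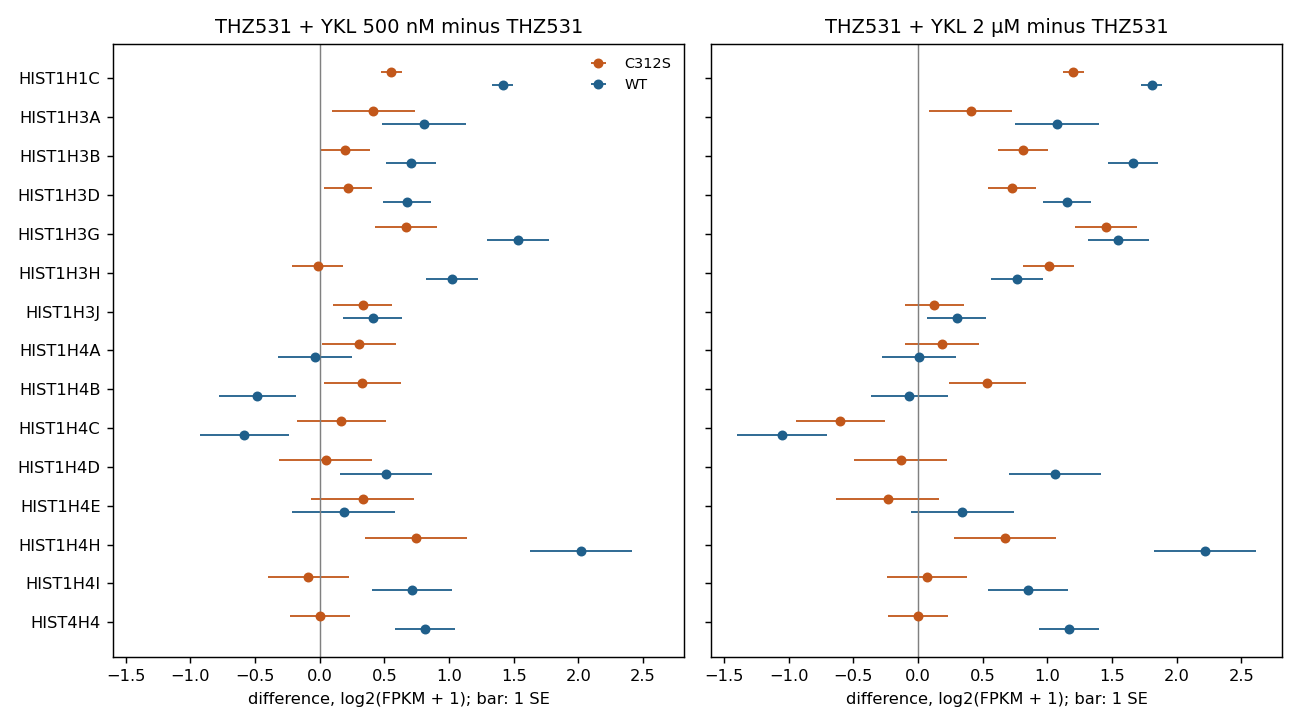
Log2 difference, THZ531 with YKL minus THZ531 alone, for the tested genes in C312S and WT at each YKL dose, on the log2(FPKM + 1) scale; bars through the points are ±1 SE. HIST1H1C lies at 0.55 in C312S and 1.42 in WT at 500 nM, and at 1.20 in C312S and 1.81 in WT at 2 µM, while HIST1H4C lies below 0 in WT.

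Between the YKL doses, limma called 0 of the 15 genes in WT (1 higher and 1 lower at an unadjusted p under 0.05, all genes 2.14% higher and 4.04% lower). HIST1H1C differed by -0.17 (95% interval -0.34 to -0.01, limma adjusted p = 0.212), so its interval excluded 0 while its adjusted p did not pass. HIST1H3G differed by -0.38 (-0.87 to 0.10), HIST1H3H by -0.08 (-0.48 to 0.33), HIST1H4H by 0.13 (-0.67 to 0.94) and HIST1H4C by 0.18 (-0.52 to 0.89). For these, differences of the size of the bounds could not be told from 0. With spike-in scaling 3 genes were called higher at 2 µM. In C312S 1 gene was called, HIST1H1C, higher at 2 µM by 0.64 (95% interval 0.48 to 0.81, limma adjusted p = 7.04e-06, all genes 2.02% higher and 1.65% lower).

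HIST4H4, the H4 gene that stands alone on chromosome 12, was listed at 0 in all 21 C312S libraries and above 0 in 19 of 21 WT libraries. In WT it was 2.02, 1.27 and 1.23 FPKM with YKL 500 nM, against 0.676, 0.430 and 0 FPKM with DMSO (0.89 ± 0.23 log2, limma adjusted p = 0.00128), with no overlap. It was also called higher with YKL 2 µM, both combinations and THZ1 (0.69, 0.68, 1.03 and 0.83), the last turning to -0.07 with spike-in scaling. The 12 libraries in which HIST4H4 reached 1 FPKM were all treated WT libraries, so the filter favours these calls. Several of these calls rest on 1 library: that with YKL 2 µM was lost without DMSO replicate 3 or YKL 2 µM replicate 3 (0.48 and 0.53), that with the combination at 500 nM without DMSO replicate 3 or combination replicate 2 (0.47 and 0.46), and that with THZ1 without THZ1 replicate 2 (0.47). Any difference of its effects between lines comes from the WT libraries alone, since C312S gives no value above 0. Its neighbour H2AFJ, an H2A variant gene 3251 bases away in GRCh38 and chosen after its values were seen, was lower in C312S too, at 0.930 ± 0.0921 FPKM in C312S DMSO and 3.02 ± 0.486 FPKM in WT DMSO (-1.05 log2, limma adjusted p = 1.41e-13). Both genes of this site were thus lower in the C312S line with DMSO, though for HIST4H4 itself the difference did not pass (-0.42, limma adjusted p = 0.0959).

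**Figure D5:**
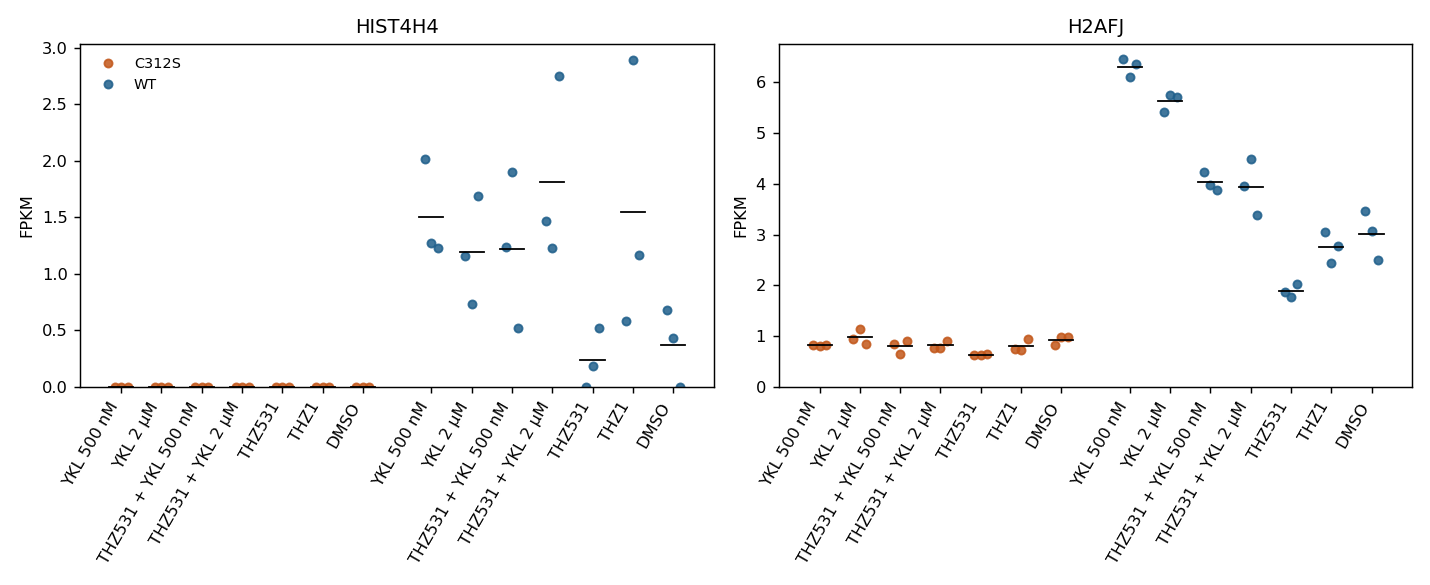
FPKM (vertical axes) of HIST4H4 and of its neighbour H2AFJ in each library, by treatment and line; points are libraries and bars are group means of 3. HIST4H4 is at 0 in every C312S library, and H2AFJ averages between 0.634 and 0.981 FPKM in the C312S groups, against 1.88 to 6.31 FPKM in WT.

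Other genes of histone supply were measured in the same libraries. Of the 22 tested of 38 clustered H2A and H2B genes, 19 were called higher and 0 lower with YKL 500 nM in WT (median 1.37; 0 lower also at an unadjusted p under 0.05) and 18 and 0 with THZ1 (median 1.37). Of all genes tested, 31.3% were called higher and 31.7% lower with YKL 500 nM, and 34.0% and 34.8% with THZ1. The same filter applied, so it can favour higher calls here too, and its part was not tested. With spike-in scaling the counts were 17 higher and 2 lower with YKL 500 nM (median 0.98) and 6 higher and 5 lower with THZ1 (median 0.24).

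SLBP, whose protein binds the stem-loop, averaged 69.7 ± 1.32 FPKM with YKL 500 nM, against 103 ± 4.55 FPKM with DMSO in WT (-0.56, limma adjusted p = 1.01e-11), and 70.3 ± 3.55 FPKM with THZ1 (-0.55). NPAT averaged 9.08 ± 0.576 FPKM with YKL 500 nM, against 7.62 ± 0.558 FPKM with DMSO (0.23, limma adjusted p = 0.00368), a rise that turned to -0.36 with spike-in scaling. Of the 24 genes of histone transcript processing and histone locus bodies, 7 were higher and 10 lower with YKL 500 nM and likewise with THZ1, against 0 higher and 24 lower in both with spike-in scaling. As deposited, all genes had 31.3% higher and 31.7% lower with YKL 500 nM, and 34.0% and 34.8% with THZ1. The split of these 24 is therefore not read as particular to them. With YKL 500 nM the coilin gene COIL fell by 0.70, and ERI1, an exonuclease that degrades histone messenger RNA, was higher by 0.34 as deposited and at -0.26 with spike-in scaling.

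Of 18 chaperones of H3 and H4, 4 were higher and 13 lower with YKL 500 nM, and 7 and 6 with THZ1, against 0 and 17 and 0 and 18 with spike-in scaling. For these and the S phase genes below, the shares of all genes as deposited were 31.3% higher and 31.7% lower with YKL 500 nM. With THZ1 they were 34.0% and 34.8%. NASP, which guards the soluble H3 and H4 pool, averaged 84.5 ± 2.15 FPKM with YKL 500 nM, against 164 ± 14.8 FPKM with DMSO (-0.95). ASF1B, a chaperone that hands on new H3 and H4, fell by 1.29 with THZ1. The S phase genes, the class with which these histone genes are normally transcribed, went down under both scalings. As deposited 2 of 21 were higher and 19 lower with YKL 500 nM (median -0.66) and 3 and 16 with THZ1 (median -0.39), and with spike-in scaling 0 were higher and 21 lower in both. MCM6, of the replicative helicase, averaged 49.0 ± 0.189 FPKM with YKL 500 nM, against 113 ± 3.13 FPKM with DMSO (-1.18).

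Among 9 other H1 and H3 variants, most of them made outside S phase, 5 were tested, and 3 were higher and 1 lower with YKL 500 nM, against 0 higher and 4 lower with spike-in scaling. All genes as deposited had 31.3% higher and 31.7% lower. H3F3B, a gene for the replacement variant of H3, averaged 194 ± 6.66 FPKM with YKL 500 nM, against 171 ± 11.2 FPKM with DMSO (0.19, and -0.47 with spike-in scaling), while CENPA, the centromeric H3, fell by 0.90. H1F0, the H1 variant of non-dividing cells, reached at most 0.112 FPKM in any library. With YKL 500 nM in WT, HIST1H1C, HIST1H3G and HIST1H3H were thus higher under both scalings in libraries where the S phase genes and SLBP were lower.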

How the data were processed

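The series holds 42 poly(A)-selected, stranded RNA libraries of HAP1 cells in 14 groups of 3. The FPKM values were made and deposited by the authors as 1 gene table; per the submitters' processing notes, HISAT2 2.0.4, Cufflinks 2.2.1, Cuffnorm and the hg19 build were used, with no order, filter or normalization setting stated. Depth is unknown, so no count test or counting interval was possible. Identical libraries were looked for and 0 pairs found, and the lowest correlation between libraries of a group was 0.970. Shared copies, and sequence between a gene and its polyadenylation site, may move FPKM in ways the table does not show.

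Genes reaching 1 FPKM in at least 3 libraries (12816 of 26228) were tested on log2(FPKM + 1) with limma 3.58.1 in R 4.3.3, with 14 group means, a mean-variance trend and Benjamini-Hochberg adjustment within each comparison at 0.05. The fit was tested on simulated data. The members, lists and tests were chosen with earlier results of these data known. Members with a group mean of at least 1 FPKM were named; library values were given for up to 3 members a family with the highest means and for those with the largest called rise or fall in each WT treatment. From other lists, up to 2 genes in each direction with the smallest p were named. The alternatives were another pseudocount, no filter, total-FPKM and spike-in scaling, values listed at 0 left out, the compared groups alone, a replicate block, each library left out, and, chosen after seeing the data, removal of GC and length trends. Promoters came from RefSeq (GRCh38.p14), transcripts and positions from GENCODE release 29, and motifs were matched by exact letters in Python 3.11.15.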

Additional observations from a re-analysis of the deposited data

Results flagged for a closer look

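The results below are called differences of a treatment effect between the lines, each C312S minus WT on the log2(FPKM + 1) scale, by the limma interaction term. There were 38 among the tested members and all of them were negative. Per comparison, 1 to 8 of the 15 members were called lower. Of all genes tested, 19.8 to 41.1% were called lower and 20.5 to 37.5% higher in these comparisons. The count of 38 alone therefore cannot be read as particular to these genes. The 38 differences share the DMSO or THZ531 libraries within a line, so they do not stand apart from each other.

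For HIST1H1C, the linker histone gene, the difference was -2.29 with YKL 500 nM and -1.47 with YKL 2 µM. It was -2.12 and -1.87 when THZ531 was combined with these doses, -1.26 with THZ531 and -0.43 with THZ1. For YKL added to THZ531 it was -0.86 at 500 nM and -0.61 at 2 µM. HIST1H1C was the one member with a called difference in all 8 comparisons as deposited. With spike-in scaling it stayed called lower with YKL 500 nM (-0.68), its combination (-0.69) and for adding 500 nM (-0.77). With THZ1 the HIST1H1C difference was then called in the other direction (1.56, limma adjusted p = 1.94e-09), and the remaining differences were not called.

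Among H3 genes with YKL 500 nM, HIST1H3A was at -1.22, HIST1H3G at -1.71 and HIST1H3H at -1.75. With YKL 2 µM, HIST1H3D was at -0.61, HIST1H3G at -1.07 and HIST1H3H at -1.37. With THZ531 and YKL 500 nM, HIST1H3D was at -0.61, HIST1H3G at -1.28 and HIST1H3H at -1.40. With THZ531 and YKL 2 µM the called H3 genes were HIST1H3A at -1.09, HIST1H3B at -0.63 and HIST1H3D at -0.57. For YKL added to THZ531, HIST1H3G was at -0.86 and HIST1H3H at -1.04 at 500 nM, and HIST1H3B was at -0.85 at 2 µM.

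Among H4 genes, HIST1H4D was at -1.47 with YKL 500 nM and -1.61 with YKL 2 µM. It was at -1.52 when YKL 2 µM was combined with THZ531 and at -1.19 for adding 2 µM to THZ531. HIST1H4I was at -0.997 with YKL 2 µM, -1.25 with THZ531 and YKL 500 nM, -1.23 with THZ531 and YKL 2 µM and -1.09 with THZ1. HIST1H4E was at -1.58 with THZ531 and YKL 2 µM, and HIST1H4H was at -1.55 for adding 2 µM to THZ531. HIST4H4, listed at 0 throughout C312S, was at -0.89 with YKL 500 nM, -1.03 with THZ531 and YKL 2 µM, -0.83 with THZ1, -0.82 for adding 500 nM and -1.17 for adding 2 µM, all of them resting on WT values alone.

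Leaving out 1 library at a time ended the call of 17 of the 38 for at least 1 of the 12 libraries behind it, and 21 kept it each time. The call for HIST4H4 was lost without any of 10 libraries for adding 500 nM, 8 for THZ1 and 2 for YKL 500 nM. That for HIST1H4I was lost for 8 with THZ1, 6 with YKL 2 µM and 1 with each combination, and that for HIST1H3D for 8 with each combination and 6 with YKL 2 µM. HIST1H3A lost it for 6 with THZ531 and YKL 2 µM and 3 with YKL 500 nM, and HIST1H3B for 6 with THZ531 and YKL 2 µM and 1 for adding 2 µM. HIST1H4D lost it for 7 and HIST1H4H for 3 when 2 µM was added, and HIST1H3G for 6 when 500 nM was added. HIST1H1C, HIST1H3H and HIST1H4E lost none.

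Scaling to the spike-ins kept 9 of the 38 calls, left 22 negative without a call and turned 7 positive: 3 with THZ531 and YKL 2 µM, 3 with THZ1 and 1 with THZ531. Scaling to the summed FPKM kept 30, and removing GC and length trends, chosen after seeing the data, kept 22, with the rest negative without a call in both. The spike-in level itself differed by 1.37 log2 between C312S DMSO and WT DMSO, and its part in these differences was not tested further.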

How the results depend on the processing

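Counts here are tested members called in either direction. With a replicate block, YKL 500 nM in WT again had 12 calls, all 27 counts stayed within 1.5 times, and of 102 named called values 100 kept their call; HIST1H3A with YKL 2 µM and the HIST4H4 difference for adding 500 nM lost it. Same-numbered libraries of different groups did not deviate together (median correlation 0.017, range -0.207 to 0.248), so the numbers were not taken as pairs. The cause of the changes below was not tested, save where fewer genes or samples entered.

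Spike-in scaling gave WT counts of 6 for YKL 500 nM, 4 for THZ1 (1 higher and 3 lower), 7 for adding YKL 2 µM to THZ531 and 3 for YKL 2 µM against 500 nM. It gave C312S counts of 7 for YKL 500 nM, 4 for THZ531, now higher, 7 for THZ531 with YKL 500 nM, 3 for THZ1 and 0 for adding 500 nM, and 6 for C312S DMSO against WT DMSO, now lower. For the difference between lines it gave 2 for YKL 2 µM, 2 for THZ531, 3 for THZ531 with YKL 2 µM and 6 for THZ1, the last 3 now higher, 2 for adding 500 nM and 1 for adding 2 µM. In WT with THZ1 the values turned to -0.16 for HIST1H3A, -0.48 for HIST1H3B, -0.52 for HIST1H3G, -0.41 for HIST1H3H, -0.10 for HIST1H4C, -0.62 for HIST1H4H, -0.65 for HIST1H4I and -0.073 for HIST4H4, and between DMSO groups to -0.63 for HIST1H1C and -0.14 for HIST1H4I. Of the 102 values 60 kept their call, 32 kept their sign without it and 10 turned.

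Leaving out genes listed at 0 in any library left fewer members to test: counts were 5, 5, 6 and 6 in WT for YKL 500 nM, YKL 2 µM, THZ531 with YKL 2 µM and THZ1, and 6 for adding 2 µM. In C312S they were 1, 2, 4 and 4 for these treatments. They were 2 between the DMSO groups, and for the difference between lines 4 with THZ531 and YKL 2 µM and 1 for adding 2 µM.

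Removing GC and length trends, chosen after seeing the data, gave 4 for C312S YKL 500 nM, 0 for C312S THZ531 and 4 between DMSO groups (1 higher and 3 lower). For the difference between lines it gave 3 for YKL 2 µM, 2 for THZ531, 3 and 4 for THZ531 with YKL 500 nM and 2 µM, 1 for THZ1, and 2 and 3 for adding 500 nM and 2 µM. Total-FPKM scaling gave 4 for C312S YKL 500 nM, 0 for C312S THZ531, 3 between DMSO groups (1 higher and 2 lower), and 2 and 4 for the difference between lines with THZ531 and with THZ531 and YKL 2 µM. A pseudocount of 0.1 gave 4 for C312S YKL 500 nM, 5 between DMSO groups (2 higher and 3 lower), and 2 and 3 for the difference between lines with THZ531 and for adding 2 µM. Without a filter the difference between lines had 1 call for THZ1 and 2 for adding 500 nM. With only the compared groups fitted, counts were 3 for C312S YKL 2 µM, 2 for C312S THZ531, 0 for C312S adding 500 nM, 3 between DMSO groups, and 2 and 1 for the difference between lines with THZ531 and THZ1.

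Leaving out each library in turn gave 7 to 10 for YKL 500 nM and 1 to 2 for THZ531 in WT, and 3 to 5 for YKL 2 µM, 1 to 2 for THZ531 and 1 to 3 for THZ531 with YKL 500 nM in C312S. It gave 2 to 6 between DMSO groups. For the difference between lines it gave 1 to 2 for THZ531, 5 to 8 for THZ531 with YKL 2 µM, 1 to 4 for THZ1, 2 to 4 for adding 500 nM and 2 to 5 for adding 2 µM. Of 666 such single values, 559 kept their call. Low FPKM and unknown depth limit all members but HIST1H1C.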
